A study of Mus musculus with 8 samples.

Results

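The TGF-β and BMP superfamily pathway was followed in mouse small intestinal organoids through 39 genes, which are 11 ligands, 9 receptors, 8 Smads, 2 ubiquitin ligases, 3 corepressors and 6 target genes, out of 54532 genes in the count table. They were taken by gene symbol from a list made for this pathway, and each symbol belonged to 1 Ensembl identifier of the table. The series holds 8 bulk libraries labelled as intestinal organoids, 4 control and 4 RANKL-treated, with no other genotype or agent on the labels. Organoids are self-renewing epithelial cultures grown from intestinal crypts in a gel, with no stromal layer, and RANKL is the cytokine that activates the receptor RANK. The study's methods give a general organoid medium with EGF, R-spondin1 and NOGGIN, a protein that binds and blocks BMP ligands, and the labels name no difference in medium between the groups. The dose and time of RANKL for these libraries are not given in the sources used here. The labels number the libraries but do not say that they come from separate cultures or animals, so the p-values measure the spread between these libraries, which may be technical.

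Ligands of this superfamily bind pairs of type I and type II receptor kinases on the cell surface. The type I kinase then phosphorylates receptor Smads, Smad1, Smad5 and Smad9 for most BMPs and Smad2 and Smad3 for TGF-β and activins, which enter the nucleus with Smad4. Among the genes they switch on are the Id genes, whose proteins block basic helix-loop-helix transcription factors, and the inhibitory Smads, which close a feedback loop. In the intestine BMP signalling is known to be low in the crypt, where stem cells sit, and to rise along the villus.

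Each library was read near the 3′ end of polyadenylated transcripts, so that a transcript gives about the same number of reads whatever its length. Levels are given in CPM, counts per 1000000 counts of a library total scaled with edgeR's TMM factors, and can be set side by side between genes as transcripts. Library totals ran from 583663 to 7807298 counts, with the shallowest in control replicate 4 (583663) and RANKL replicate 1 (613135). A gene with 0 counts could still have been at up to 0.384 CPM where reads were most and up to 5.14 CPM where they were fewest. Differences are log2 fold changes of RANKL against control from edgeR's quasi-likelihood test, with p adjusted over the 9971 genes that had enough counts and a threshold of 0.05. Of the 6 epithelial markers checked, none was near 0 and their summed level was 5310 to 6234 CPM in control and 5411 to 5823 CPM in RANKL libraries. Fewer cells of a type and less RNA per cell cannot be told apart in bulk libraries.

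Genes of the pathway that differed between control and RANKL-treated organoids were ligands, target genes and the inhibitors Smad7, Smurf1 and Skil. No receptor passed the threshold. Of the 39 members, 27 had enough counts to test, and 11 of these (40.7%) passed the threshold, 8 higher and 3 lower with RANKL. Among all genes tested, 25.9% passed, 13.6% higher and 12.4% lower. The median log2 fold change was 0.04 over the 27 tested members and 0.00 over all genes tested. By layer, 1 ligand was higher and 3 were lower, 1 of 6 tested Smads, 1 of 2 ubiquitin ligases and 1 of 3 corepressors were higher, and the 4 tested target genes were higher. The filter on low counts needs about 5.39 CPM in 4 libraries. Bmp2, Smad7, Id3 and Atoh8 met it in 4 libraries only in the RANKL group, so their presence among the tested genes depends on their being high there. For 10 of the 11 genes past the threshold, the 4 RANKL libraries did not overlap the 4 control libraries, 8 of them higher, and the same held for Acvr2a below the threshold. Among all genes tested, 24.6% had groups that did not overlap, 13.1% higher and 11.5% lower. Each of the 11 also passed in all 8 fits that left out 1 library, and without control replicate 4 and RANKL replicate 1 together, a fit added after the data were seen.

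**Figure D1:**
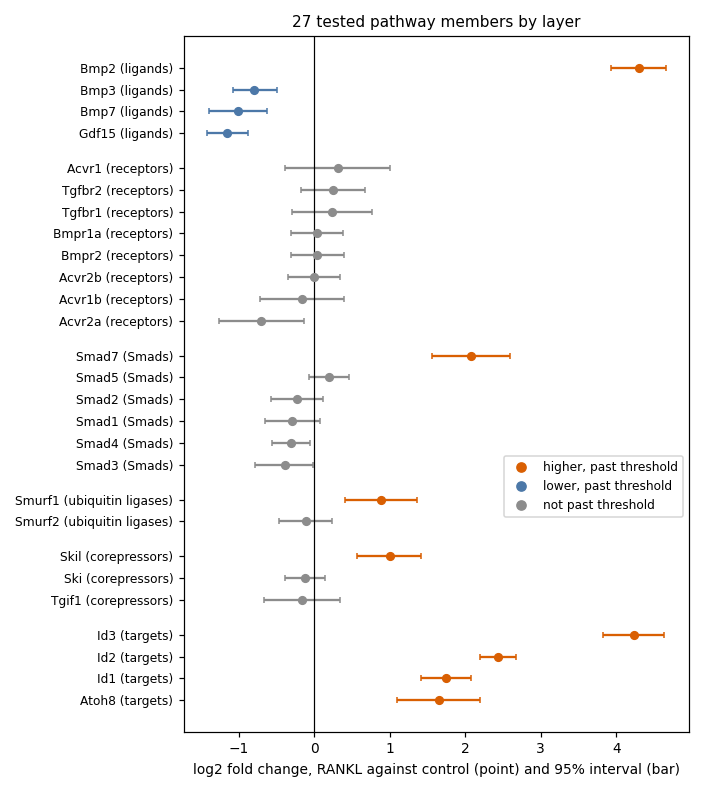
Log2 fold change of RANKL-treated against control organoids (x axis) for the 27 tested members, ordered by layer (y axis), with bars for the 95% interval of the edgeR fit. Bmp2, Smad7, Smurf1, Skil, Id1, Id2, Id3 and Atoh8 lie right of 0 and Bmp3, Bmp7 and Gdf15 left of it past the threshold, while the 8 tested receptors lie between -0.70 and 0.31.

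Among the ligands, Bmp2 moved opposite to the other ligands with enough counts. Bmp2 (chromosome 2, 133552159 to 133562885 on GRCm38) encodes a BMP that signals through Bmpr1a and Bmpr2. It was at 4.71, 5.90, 4.31 and 5.16 CPM in control replicates 1 to 4 and at 113.0, 82.6, 90.7 and 108.7 CPM in RANKL replicates 1 to 4. The lowest RANKL library was far above the highest control library. The fitted difference was 19.6-fold (log2 fold change 4.30 with a standard error of 0.18, edgeR adjusted p = 3.9e-18).

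Bmp3 (chromosome 5, 98854415 to 98884396), an atypical BMP known to oppose other BMPs, was the most abundant BMP ligand in control organoids. It was at 107.7, 96.6, 108.7 and 89.4 CPM in control and at 92.0, 55.7, 58.4 and 46.1 CPM in RANKL-treated organoids. The groups overlapped, since RANKL replicate 1 was above control replicate 4, which are the shallowest libraries of their groups. The fitted log2 fold change was -0.79 with a standard error of 0.14 (edgeR adjusted p = 9.8e-05) and -0.97 without these libraries (adjusted p = 7.2e-06 from edgeR). Bmp7 (chromosome 2, 172868012 to 172940321), which belongs to the subgroup of BMPs around BMP5 and BMP6, was at 34.2, 38.4, 32.7 and 39.6 CPM in control and at 9.69, 15.1, 21.9 and 18.7 CPM in RANKL-treated organoids. Every RANKL library was lower than every control library, with a log2 fold change of -1.01 with a standard error of 0.19 (edgeR adjusted p = 0.00012). Gdf15 (chromosome 8, 70629393 to 70632456) encodes a stress-induced distant member of the family that signals to the brainstem through the receptor GFRAL rather than through BMP receptors. It was at 94.5, 93.7, 111.3 and 89.4 CPM in control libraries and at 48.4, 45.4, 50.6 and 35.2 CPM with RANKL. The groups lay apart, with a log2 fold change of -1.15 with a standard error of 0.14 (edgeR adjusted p = 8.6e-08).

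**Figure D2:**
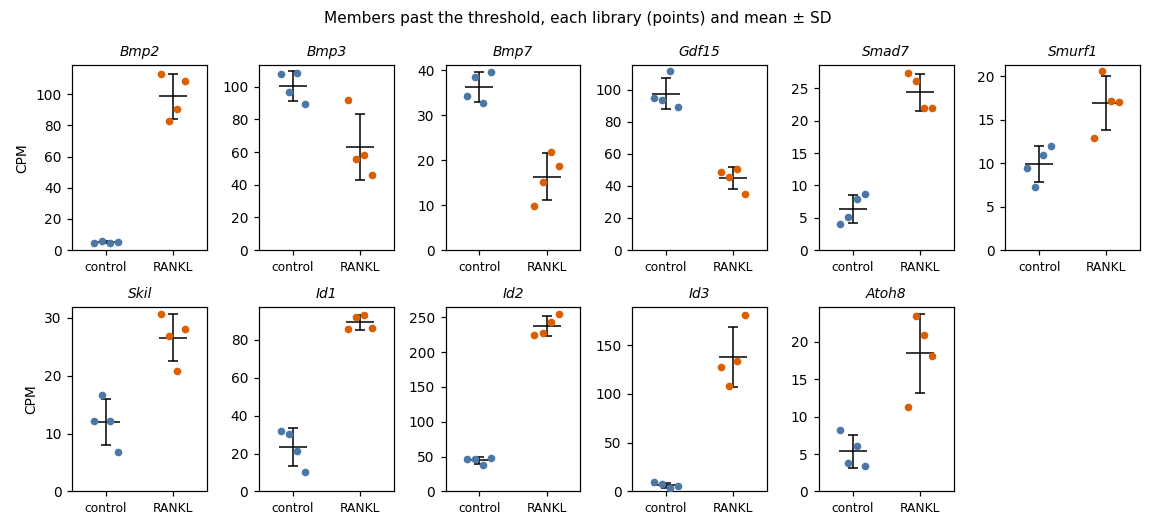
Level in CPM (y axis, from 0 and scaled for each panel) of the 11 members past the threshold in each control (blue) and RANKL (orange) library, with the mean and SD of 4 libraries as bars. The groups lie apart in every panel except that of Bmp3, where RANKL replicate 1 at 92.0 CPM is above control replicate 4 at 89.4 CPM.

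The make-up of the BMP ligand transcripts changed with these moves. The sums and shares in this paragraph and those of the Id and Smad counts were chosen after the values were seen and carry no test. Of the counts of Bmp2, Bmp3, Bmp4, Bmp7 and Bmp8b, Bmp2 made up 3.53% ± 0.564 in control and 55.3% ± 4.85 in RANKL-treated organoids (SD, n = 4 each). In control replicate 4, where this share rests on 3 of 79 counts, it was 3.8% with a 95% Wilson interval of 1.3% to 10.6%. Bmp3 made up 70.5% ± 4.0 of the counts in control and 34.8% ± 6.5 with RANKL, and Bmp7 25.5% ± 3.21 and 9.46% ± 3.56. The order of the ligands was thus Bmp3, Bmp7, Bmp2 in each control library and Bmp2, Bmp3, Bmp7 in each RANKL library. The summed level of the 5 ligands was 147.0, 140.9, 146.2 and 135.9 CPM in control and 217.9, 153.5, 171.1 and 174.1 CPM with RANKL, and without Bmp2 it was 137.5 ± 5.64 and 80.4 ± 17.5 CPM. Bmp2 therefore rose by more than the other BMP ligands together fell, and in both sums the groups lay apart.

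**Figure D3:**
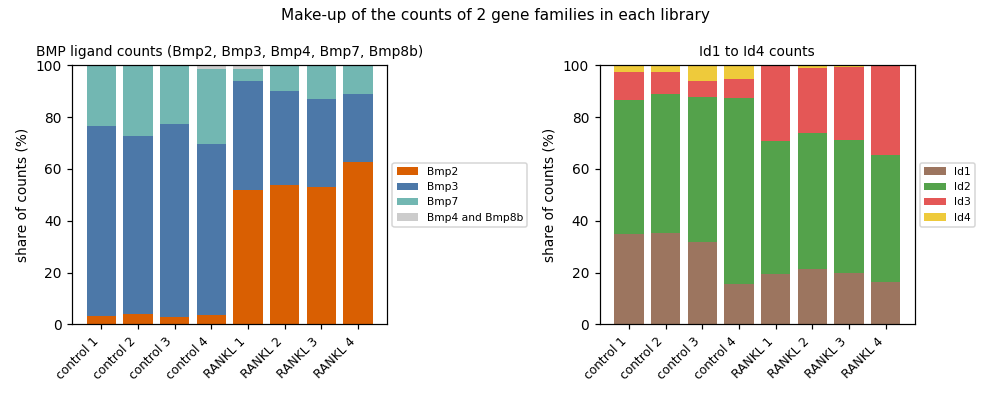
Share in percent (y axis) of the counts of BMP ligands (left) and of Id1 to Id4 (right) that each gene takes in each of the 8 libraries (x axis). Bmp2 takes 2.95% to 4.19% of the BMP ligand counts in control and 51.9% to 62.5% in RANKL libraries, and Id3 takes 6.08% to 10.8% and 25% to 34.6% of the Id counts.

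The other 7 ligands had too few counts to test. Tgfb1, the main TGF-β ligand of adult tissues, was at 2.29, 1.07, 2.28 and 1.72 CPM in control and at 6.46, 5.51, 4.69 and 3.30 CPM in RANKL-treated organoids, from 32 and 27 counts. Its groups did not overlap, and the ratio of the summed counts scaled for depth was 2.34 (95% interval 1.35 to 4.03, which covers counting error only). Without the filter on low counts it was short of the threshold (edgeR adjusted p = 0.096). Bmp4, which the mesenchyme under the epithelium is known to supply in the gut, was at 0.127, 0, 0.253 and 1.72 CPM in control, from 3 counts, and at 0 in the RANKL libraries. Tgfb2 had 10 counts over the 8 libraries, Inhba, the activin A subunit, 11 and Bmp8b 6, with groups that overlapped. Tgfb3 and Inhbb, the activin B subunit, had 0 counts in every library.

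No receptor passed the threshold in either direction, and 8 of 9 were tested. Bmpr1a, the main type I receptor for BMP2 and BMP4, was at 24.2, 31.7, 32.4 and 31.0 CPM in control and at 30.7, 30.3, 27.6 and 31.9 CPM in RANKL-treated organoids, and Bmpr2, the BMP type II receptor, at 28.0, 31.1, 29.9 and 41.3 against 22.6, 38.5, 31.8 and 29.7 CPM. The groups overlapped for each of these receptors. The 95% interval of the log2 fold change was -0.31 to 0.38 for Bmpr1a and -0.31 to 0.39 for Bmpr2, so that a fall or rise of up to about these sizes is not excluded. Tgfbr2, the type II receptor for TGF-β, was at 15.5, 14.8, 16.7 and 17.2 CPM in control and at 22.6, 13.8, 18.8 and 21.4 CPM with RANKL, with RANKL replicate 2 below every control library and an interval of -0.17 to 0.67. Its partner Tgfbr1 had an interval of -0.29 to 0.77, and the type I receptors Acvr1, of the BMP side, and Acvr1b, of the activin side, -0.38 to 1.01 and -0.72 to 0.39. The activin type II receptor Acvr2b had a log2 fold change of -0.00, whose sign changed with the settings of the fit, and an interval of -0.34 to 0.34.

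Acvr2a, the other activin type II receptor, which BMP7 and activins can use, was the receptor with the largest difference. It was at 13.5, 12.6, 15.2 and 24.1 CPM in control and at 9.69, 9.64, 12.0 and 4.94 CPM in RANKL-treated organoids. Every RANKL library was below every control library, yet the gene missed the threshold (log2 fold change -0.70, 95% interval -1.26 to -0.14, adjusted p = 0.058 from edgeR). Without RANKL replicate 3 it was past it, at -0.95 (adjusted p = 0.034 from edgeR). The coreceptor Tgfbr3 had 11 counts in all and was not tested.

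**Figure D4:**
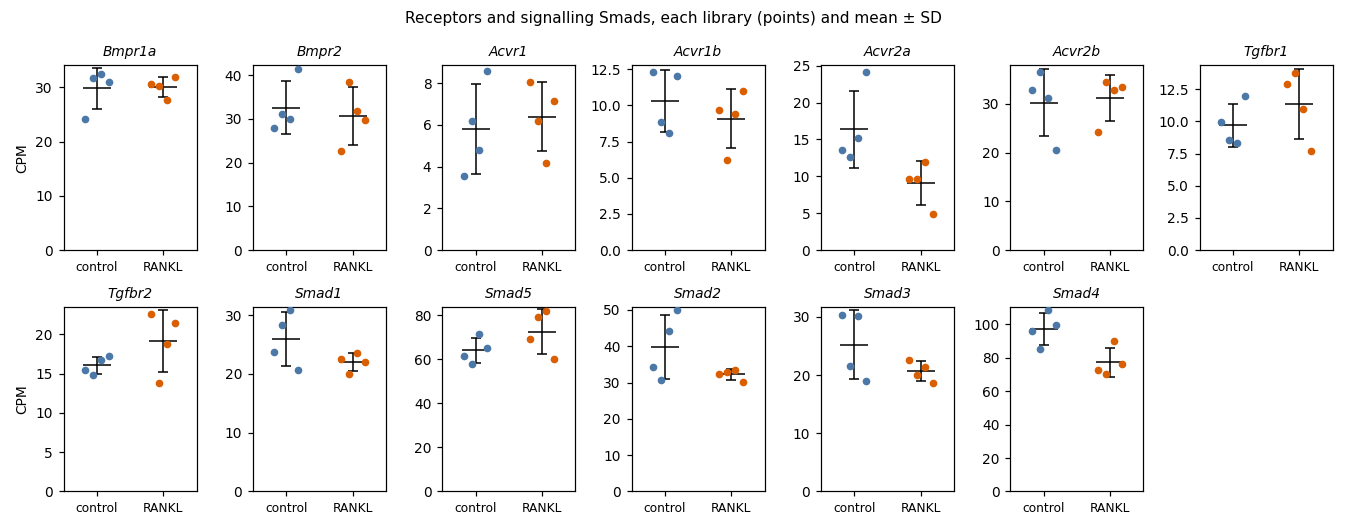
Level in CPM (y axis, from 0 and scaled for each panel) of the 8 tested receptors and of Smad1, Smad5, Smad2, Smad3 and Smad4 in each control (blue) and RANKL (orange) library, with the mean and SD of 4 libraries as bars. The groups overlap in every panel except that of Acvr2a, where the 4 RANKL libraries sit at 4.94 to 12.0 CPM, below the control libraries at 12.6 to 24.1 CPM.

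None of the 5 receptor Smads and common Smad with enough counts passed the threshold. Smad1 was at 23.8, 28.4, 30.9 and 20.6 CPM in control and at 22.6, 20, 23.5 and 22.0 CPM in RANKL-treated organoids. Smad5, which works beside Smad1 in the BMP branch, was at 61.5, 58.0, 71.5 and 65.3 against 69.4, 79.2, 81.9 and 59.9 CPM, and a short gene model on the same strand, Gm27301, overlaps it. Both had groups that overlapped, with 95% intervals of the log2 fold change from -0.65 to 0.08 and from -0.07 to 0.46. Smad2 and Smad3, of the TGF-β branch, had log2 fold changes of -0.23 and -0.39 (adjusted p = 0.35 and 0.13 from edgeR).

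Smad4, the partner shared by both branches and the most abundant Smad, was at 96.0, 85.3, 108.5 and 99.7 CPM in control and at 72.6, 70.2, 89.7 and 76.3 CPM in RANKL-treated organoids. Only RANKL replicate 3 reached into the control range. The log2 fold change was -0.31 (95% interval -0.56 to -0.06), short of the threshold at an adjusted p of 0.058 from edgeR, and past it without RANKL replicate 3 (-0.41, adjusted p = 0.035 from edgeR) or without control replicate 2 (-0.38, adjusted p = 0.035 from edgeR).

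The inhibitory Smad7 rose where the signalling Smads did not pass the threshold. Smad7 (chromosome 18, 75367529 to 75395935) encodes a protein that binds activated type I receptors and blocks them. It was at 4.07, 5.10, 7.86 and 8.60 CPM in control and at 27.4, 26.2, 21.9 and 22.0 CPM in RANKL-treated organoids, and no library of one group came near the other group. The difference was 4.21-fold (log2 fold change 2.07 with a standard error of 0.25, edgeR adjusted p = 1.5e-07). Of all Smad counts, Smad7 made up 2.43% ± 0.692 in control and 9.72% ± 1.27 with RANKL (SD, n = 4 each), while Smad4 made up 37.4% ± 0.578 and 30.7% ± 2.64. Smad6, the other inhibitory Smad and one tied to the BMP branch, had 35 counts in control and 12 in RANKL libraries, a depth-scaled ratio of 0.951 (95% counting interval 0.449 to 1.88), so that a difference was not detectable at this depth. Smad9 had 1 count over the 8 libraries.

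Of the modulators that act on Smads and receptors, Smurf1 and Skil rose. Smurf1 (chromosome 5, 144876495 to 144965847), a ubiquitin ligase that marks BMP-branch Smads and, with Smad7, receptors for degradation, was at 9.42, 7.25, 10.9 and 12.0 CPM in control and at 12.9, 20.6, 17.2 and 17.0 CPM in RANKL-treated organoids. The groups did not overlap, although RANKL replicate 1 was only slightly above control replicate 4, and the log2 fold change was 0.89 with a standard error of 0.23 (edgeR adjusted p = 0.0051). Skil (chromosome 3, 31095058 to 31122577), which encodes the corepressor SnoN that binds Smad complexes and is itself a TGF-β target, was at 12.1, 16.6, 12.2 and 6.88 CPM in control and at 30.7, 26.8, 20.9 and 28.0 CPM with RANKL. Its groups lay apart, with a log2 fold change of 1.00 with a standard error of 0.21 (edgeR adjusted p = 0.00056). The near relatives of these genes did not pass the threshold, namely Smurf2 at -0.11 (95% interval -0.46 to 0.23), Ski at -0.12 (-0.38 to 0.14) and the corepressor Tgif1 at -0.16 (-0.66 to 0.34). Whether Smurf1 differed from Smurf2, or Skil from Ski, in its response was not tested.

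The 4 tested target genes rose, by 1.65 to 4.23 on the log2 scale, with a median of 2.09. Atoh8 and Id3, at the ends of this range, met the filter in 4 libraries only in the RANKL group. Id4 and Bambi were too low to test. Id1 (chromosome 2, 152736251 to 152737410) was at 31.8, 30.6, 21.3 and 10.3 CPM in control and at 85.6, 92.2, 93.4 and 86.2 CPM in RANKL-treated organoids. Control replicate 4 was low among the controls, from a shallow library, while the RANKL libraries were close together, and the groups lay apart (log2 fold change 1.74 with a standard error of 0.16, edgeR adjusted p = 5.6e-10). Id2 (chromosome 12, 25093799 to 25097140), the most abundant Id gene in every library, was at 47.0, 46.7, 37.3 and 48.2 CPM in control and at 224.4, 227.1, 243.5 and 254.3 CPM with RANKL. The RANKL libraries were all well above the controls, at 5.38-fold (log2 fold change 2.43 with a standard error of 0.12, edgeR adjusted p = 1.1e-16). Id3 (chromosome 4, 136143497 to 136145755) was at 9.80, 7.25, 4.05 and 5.16 CPM in control and at 127.5, 108.1, 134.0 and 180.7 CPM with RANKL. It had the largest rise of the target genes, 18.7-fold (log2 fold change 4.23 with a standard error of 0.20, edgeR adjusted p = 5.2e-17), and the groups lay far apart.

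Atoh8 (chromosome 6, 72206177 to 72235577), a basic helix-loop-helix factor known as a BMP-SMAD target in other cell types, was at 8.15, 3.76, 6.08 and 3.44 CPM in control and at 11.3, 23.4, 20.9 and 18.1 CPM in RANKL-treated organoids. RANKL replicate 1, from a shallow library, was nearest to the controls, and the groups did not overlap (log2 fold change 1.65 with a standard error of 0.27, edgeR adjusted p = 1.9e-05). Id4 was the least abundant Id gene in the RANKL libraries and was at 2.42, 2.42, 4.05 and 3.44 CPM in control and at 1.61, 4.13, 2.09 and 0.549 CPM with RANKL, too low to test, with groups that overlapped and a depth-scaled ratio of 0.723 (95% counting interval 0.349 to 1.39). Bambi, a decoy receptor without a kinase domain that the pathway induces, had 14 counts in control and 5 in RANKL libraries and was not tested.

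Summed over Id1 to Id4, the level (mean ± SD of 4 libraries) was 77.9 ± 12.9 CPM in control and 466.4 ± 41.1 CPM with RANKL. The make-up of these transcripts also changed. Id3 made up 8.22% ± 1.95 of the Id counts in control and 29.3% ± 3.98 with RANKL, and its lowest RANKL library (25%, 95% Wilson interval 21.8% to 28.6%) was above its highest control library (10.8%, 8.7% to 13.3%). Id1 made up 29.4% ± 9.44 and 19.3% ± 2.02 and Id2 58.3% ± 9.2 and 51.0% ± 1.64, both with groups that overlapped. Id4 went from 4.16% ± 1.71 to 0.468% ± 0.357 of the Id counts, with no overlap, while the other Id genes rose. Its shares rest on few counts, 1, 6, 4 and 1 in RANKL replicates 1 to 4 and 2 of 39 in control replicate 4. The 95% Wilson interval of control replicate 4 (1.42% to 16.9%) overlapped that of RANKL replicate 2 (0.439% to 2.07%). In CPM the groups of Id4 overlapped.

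Promoter sequences of the members were searched for short motifs, as a description with no test. RefSeq promoter windows on GRCm38.p6, the 250 bases before a start site, were at hand for 28 of the 39 members, with 36 windows, and among the genes past the threshold for Gdf15, Smurf1, Id2, Id3 and Atoh8. The BMP-type Smad motif GGCGCC, which reads the same on both strands, was in 25% of the members' windows and in 9.59% of all 32851 windows. The members with it were Bmpr1a, Bmpr2, Id2, Id4, Ski, Smad5, Smad9, Smurf2 and Tgfbr1, of which Id2 is the one that passed the threshold. The Smad box motif CAGAC, sought on both strands as CAGAC or GTCTG, was in 41.7% and 42.2%, among them the windows of Id3, Gdf15 and Smurf1. The NF-κB consensus was in 0 of the 36 member windows and in 3.9% of all windows, which says only that these letters are not in these windows. The following lines show, 5′ to 3′ and with the motif in capitals, the motif of Id2 (30 bases at chr12:25096306-25096335, minus strand, in which the motif begins 231 bases before the start), and those of Id3 (plus strand, chr4:136143642-136143671, in which the motif begins 167 bases before the start, and chr4:136143741-136143770, in which it begins 68 bases before it). The whole windows of Id4 (chr13:48260866-48261115, plus strand), which holds GGCGCC and belongs to a gene too low to test, and of Atoh8 (chr6:72235578-72235827, minus strand), which holds neither Smad motif and belongs to a gene that rose, follow for contrast. Only short stretches are shown for Id2 and Id3, since longer transcripts of these genes run through their windows. A motif match describes letters and is not a measured binding site.
Id2: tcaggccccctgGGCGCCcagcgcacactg
Id3, far: ctgtcctcggcgtCAGACcagcctaaggaa
Id3, near: tggacccttggcgGTCTGttttgaataagg
Id4: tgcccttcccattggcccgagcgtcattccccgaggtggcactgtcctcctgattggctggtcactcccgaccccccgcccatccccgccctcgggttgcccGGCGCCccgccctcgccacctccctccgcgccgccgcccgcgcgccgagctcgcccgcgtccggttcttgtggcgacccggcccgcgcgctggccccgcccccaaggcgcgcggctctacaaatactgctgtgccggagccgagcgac
Atoh8: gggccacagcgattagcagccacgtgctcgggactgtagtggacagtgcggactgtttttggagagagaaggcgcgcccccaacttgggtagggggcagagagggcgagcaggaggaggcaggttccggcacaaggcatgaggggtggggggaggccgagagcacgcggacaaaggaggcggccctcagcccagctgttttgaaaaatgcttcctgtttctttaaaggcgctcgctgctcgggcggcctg

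A further 89 genes of the superfamily were listed by role, of which 29 had enough counts, 6 were higher, 2 were lower and 21 did not pass the threshold. These 8 of 29 are a share near the 25.9% of all genes tested. Of 20 extracellular antagonists and latency proteins, only Twsg1, a BMP-binding protein, and Furin, a protease that matures the ligands, could be tested, and neither passed (log2 fold changes -0.24 and 0.10). Nog, Chrd, Chrdl1, Chrdl2, Bmper and Lrrc32 were at 0 counts in every library, so the transcripts of these secreted BMP antagonists and of the latency protein Lrrc32 were not detected in either group. Of 20 further ligands none had enough counts for the filter and 15 were at 0. Outside the naming rule and chosen after their values were seen, Bmp6, Gdf11 and Gdf9 are the further ligands whose groups lay apart. Bmp6 was at 0.255, 0, 0.507 and 0 CPM in control and at 3.23, 3.44, 3.13 and 3.84 CPM with RANKL, a depth-scaled ratio of 13.9 from 4 and 20 counts (95% counting interval 4.64 to 55.8). Gdf11 had a ratio of 3.75 (1.92 to 7.48), and without the filter on low counts Bmp6 and Gdf11 passed the threshold (edgeR adjusted p = 0.00023 and 0.018). The oocyte factor Gdf9 had a ratio of 0.329 (0.127 to 0.721) from 59 and 7 counts, and without the filter it was short of the threshold (edgeR adjusted p = 0.056). Of the 3 tested coreceptors and further receptors none passed. Rgma of the same list, too low for the filter and also chosen after its values were seen, had 26 counts in control and 0 in RANKL libraries. Its groups lay apart, and without the filter on low counts it passed the threshold (edgeR adjusted p = 0.014).

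Among 19 tested intracellular regulators, 3 were higher and 2 were lower, again a share near the 25.9% of all genes tested. Tgif2, a corepressor of Smad2 and Smad3 that is the paralog of Tgif1, was at 7.38, 5.37, 4.81 and 8.60 CPM in control and at 43.6, 17.9, 20.9 and 17.6 CPM in RANKL-treated organoids. The groups lay apart and RANKL replicate 1 stood above its group (log2 fold change 1.85 with a standard error of 0.28, edgeR adjusted p = 5.1e-06). Tgif2 met the filter on low counts in 4 libraries only in the RANKL group, so its being tested depends on its being high there. Fkbp1a, which holds type I receptors inactive, rose by 0.49 (adjusted p = 0.00038 from edgeR), and Trim33, a Smad4 ubiquitin ligase, by 0.47 (adjusted p = 0.032), a call that was kept in 4 of 8 fits without 1 library and ran from 0.33 to 0.48 in the others. Trim33 was also short of the threshold by the DESeq2 Wald test (0.47, adjusted p = 0.07) and without the filter on low counts (0.43, edgeR adjusted p = 0.084). The ubiquitin ligase Wwp1 fell by 0.73 (adjusted p = 0.0033 from edgeR), and Xiap, which links BMP receptors to the kinase TAK1, by 0.40 (adjusted p = 0.016), which was not past the threshold without RANKL replicate 3 (-0.38) or 4 (-0.31).

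**Figure D5:**
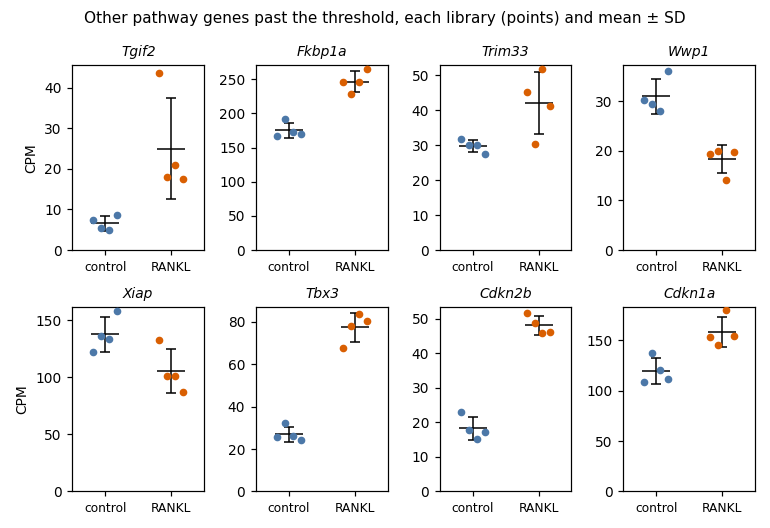
Level in CPM (y axis, from 0 and scaled for each panel) of the 8 further pathway genes past the threshold in each control (blue) and RANKL (orange) library, with the mean and SD of 4 libraries as bars. Tgif2, Fkbp1a, Tbx3, Cdkn2b and Cdkn1a lie higher and Wwp1 lower in every RANKL library, while the groups of Trim33 and Xiap overlap.

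Of 19 further target genes, 5 could be tested and 3 of them were higher, beside 25.9% called and 13.6% higher of all genes tested. The other 14 had too few counts, with 5 of them at 0. Of these 14, Snai2 had groups that lay apart, with 14 counts in control and 0 with RANKL. Without the filter on low counts it was short of the threshold (edgeR adjusted p = 0.1). Msx1 and Tgfbi, with depth-scaled ratios of 2.43 and 2.5, had groups that overlapped. Tbx3, a T-box repressor that BMPs induce in several tissues, was at 25.7, 32.2, 26.1 and 24.1 CPM in control and at 67.8, 77.8, 83.4 and 80.2 CPM in RANKL-treated organoids (log2 fold change 1.51 with a standard error of 0.14, edgeR adjusted p = 6.0e-10). Cdkn2b, which encodes the cell cycle inhibitor p15 that TGF-β induces in epithelia, was at 22.9, 17.7, 15.2 and 17.2 against 51.7, 48.9, 45.9 and 46.1 CPM (log2 fold change 1.33 with a standard error of 0.17, edgeR adjusted p = 2.5e-07). In both genes every RANKL library was above every control library. Cdkn1a, which encodes p21, rose by 0.40 (adjusted p = 0.0072 from edgeR), short of the threshold without RANKL replicate 3 (0.33, adjusted p = 0.057).

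Enterocytes near the villus tip, where BMP signalling is known to be high, were followed through 10 genes, of which 9 were tested, 2 were higher and 1 was lower, beside 25.9% called of all genes tested. Junb rose by 1.21 (adjusted p = 5.6e-09 from edgeR) and Apoa1, an apolipoprotein, by 0.33 (adjusted p = 0.011 from edgeR), the latter short of the threshold without the shallow libraries (0.31, adjusted p = 0.061). Klf4, a factor of differentiated epithelial cells, fell by 0.51 (adjusted p = 0.0022 from edgeR). The other 6 tested genes did not pass, and the summed level of the 10 genes was 2115 to 2657 CPM in control and 2517 to 2746 CPM in RANKL libraries.

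The treatment showed in the genes of the RANK system. Tnfrsf11a, which encodes RANK, was at 28.4, 23.1, 36.2 and 36.1 CPM in control and at 148.5, 172.1, 152.8 and 148.8 CPM in RANKL-treated organoids (log2 fold change 2.39, adjusted p = 7.2e-15 from edgeR). Nfkbia and Relb, of the NF-κB system, had log2 fold changes of 3.24 and 3.32, the adaptor Traf6 of 0.20, short of the threshold, and Tnfsf11, the gene of RANKL itself, had 0 counts. Tnfrsf11b, the decoy receptor for RANKL, had 0 counts in the control group and 39 with RANKL. Set against the 3 counts that 0 in the whole control group allows, its level was at least 36.0-fold higher.

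Cell type markers also moved with the treatment, and their part in the pathway genes' differences was not tested. Of 8 M cell markers, 6 were tested and these were higher (median log2 fold change 4.22), with a summed level of 50.7 to 59.6 CPM in control and 1836 to 2086 CPM with RANKL, while Gp2, a marker of mature M cells, was at 0 counts. Spib, Sox8, Tnfaip2 and Marcksl1 reached the level of the filter in 4 libraries only in the RANKL group, so their being tested depends on their being high there. Spib, the transcription factor of the M cell lineage, had a log2 fold change of 8.56. Of 6 stem cell markers, Lgr5 (-2.22), Smoc2 (-0.76) and Axin2 (-0.90) were lower and Ascl2 (1.10) was higher, with summed levels of 1878 to 2305 CPM and 1638 to 1816 CPM. Among the other epithelial lists, Apoa1 was higher among the enterocyte markers, 1 of 6 Paneth cell markers was lower (Defa17, -0.70), 1 of 6 tested enteroendocrine markers was higher (Sct, 0.46), and none of 6 goblet cell markers nor the 1 tested tuft cell marker passed. Of the 6 general epithelial markers, Krt18 was lower (-0.70). Of 18 stromal, endothelial and immune markers, the summed level was 7.26 to 24.1 CPM in control and 22.7 to 35.5 CPM with RANKL. The difference lay in Pdgfrb, which rose by 2.53 on the log2 scale, since the other 17 summed to 5.09 to 18.9 and 5.51 to 17.8 CPM, and Dcn, Cd3e, Cd79a, Cdh5 and Kdr were at 0 counts in every library. Pdgfrb, too, met the filter in 4 libraries only in the RANKL group, so its being tested depends on its being high there.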

How the data were processed

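Total RNA of 8 intestinal organoid samples was made into 3′ libraries and sequenced as single reads of 50 bases. The authors trimmed reads with BBDuk, removed abundant sequences with bowtie2, aligned to GRCm38 with STAR and counted reads per gene of Ensembl release 94 with strand-specific featureCounts. The deposited values are these raw counts, without normalization, per the file headers and the study's methods. No molecular identifiers are mentioned, so PCR copies are counted as reads, and intervals and floors cover counting error only.

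Groups and replicate numbers come from the sample titles. All 54532 rows name a gene, of which 54495 matched GENCODE release M21, the source of symbols and coordinates, and 30696 had 0 counts throughout. With edgeR 4.0.16 in R 4.3.3, TMM factors, the filter on low counts and the quasi-likelihood test were applied to all 8 libraries with no covariate, and p was adjusted by Benjamini-Hochberg over the 9971 genes tested. The study's own test was DESeq2. For each listed gene, CPM values were compared by a two-sided exact permutation test. With 4 against 4 libraries and 70 assignments it cannot give a p below 0.0286, which is its p for every gene whose groups did not overlap. Two-sided 95% intervals of log2 fold changes come from the edgeR fit, and the standard error is the fold change divided by the square root of F.

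Alternatives were DESeq2 size factors, library totals, the DESeq2 1.42.0 Wald test, limma-voom (limma 3.58.1), no filter, a minimum of 10 counts in each library, a block for the replicate number, leaving out each library, an adjusted p of 0.01 and a fold of at least 2. The fit without control replicate 4 and RANKL replicate 1 and the shares without each library were added after the data were seen. The members, gene lists and tests were chosen with earlier results of these data known. Named genes are all members, with values per library for those past the threshold and for Bmp4, Tgfb1, Bmpr1a, Bmpr2, Tgfbr2, Smad1, Smad4 and Smad5, up to 5 genes of each other list with the smallest adjusted p at 5 CPM or more, list members past the threshold against their list's median, and the RANK system. Other genes given per library were chosen after their values were seen.

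Simulated counts with known changes gave 99 of 100 genes changed 4-fold and 81 of 100 changed 2-fold, with 13 false calls among 9835 genes, and 0 calls with no change. Pairs of libraries of 1 group differed by more than counting noise (chi-square per degree of freedom 1.25 to 11.9 over 12 pairs), so none were merged. Markers of intestinal epithelium, stem cells, enterocytes, Paneth, goblet, enteroendocrine, tuft and M cells, mesenchyme, endothelium and immune cells were counted in the same fit. Promoter windows come from RefSeq. Figures were drawn with matplotlib 3.10.9, and tables read with Python 3.11.15. Some genes of the lists are not reported here.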

Additional observations from a re-analysis of the deposited data

Results flagged for a closer look

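In groups of 4 libraries, 7 of 108 sets of values had a library far from the others of its group, where chance gives about 1 in 20, or 5.4. Acvr2b was at 24.2 CPM in RANKL replicate 1, with the nearest library at 32.9. Id2 was at 37.3 CPM in control replicate 3, with the nearest at 46.7. Tgif2 was at 43.6 CPM in RANKL replicate 1, with the nearest at 20.9, and Wwp1 at 14.1 CPM in RANKL replicate 3, with the nearest at 19.4. Junb was at 100 CPM in RANKL replicate 4, with the nearest at 124.3, and Nfkbia at 189.1 CPM in control replicate 3, with the nearest at 275.2. The share of Id1 among the Id counts was 15.4% in control replicate 4, with the nearest at 31.9%.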

How the results depend on the processing

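The 11 members past the threshold kept direction and call in all 168 values computed under the other scalings, tests, filters and left-out libraries. With at least 10 counts needed in every library, only Id2, Bmp3 and Gdf15 among them were tested. At a fold of at least 2, 6 higher and 2 lower members were left, since Smurf1, Skil and Bmp3 fell short of it. The count of higher members, 8, fell to 1 (Id2) when at least 10 counts were needed in every library, which leaves fewer genes to test, and was 8 in every leave-one-out fit. The count of lower members, 3, ran from 3 to 5 with 1 library left out, and was 5 without RANKL replicate 3, where Acvr2a and Smad4 passed. It was 2 with at least 10 counts in every library, where Bmp7 was not tested. Over all genes, 2587 passed, against 1636 at an adjusted p of 0.01, 577 at a fold of at least 2, 2053 by DESeq2 and 1853 to 2601 with 1 library left out. Of the other pathway genes, 6 higher and 2 lower became 3 and 0 at a fold of at least 2, 5 and 2 by DESeq2 and 7 and 3 without the filter, the lower count was 1 at an adjusted p of 0.01, and with 1 library left out the counts ran from 5 to 6 and from 1 to 3. The lower count was 1 without RANKL replicate 3 or 4. The cause was not tested. Among the members, signs turned in receptors short of the threshold, and Traf6, also short of it, ran from -0.06 to 0.59 with 1 library left out. Acvr2b was at 0.02 with library totals, 0.00 by DESeq2 and by limma-voom, 0.01 with at least 10 counts and 0.01 without both shallow libraries, and Bmpr1a at -0.00 without the filter. With 1 library or both shallow libraries left out, log2 fold changes ran from -0.05 to 0.08 for Acvr2b, -0.09 to 0.11 for Bmpr1a, -0.07 to 0.17 for Bmpr2 and -0.30 to 0.04 for Acvr1b, which turned without control replicate 1. The shares kept their direction with each library left out, and the difference in Bmp2's share ran from 49.4 to 52.9 percentage points.

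Replicate numbers are shared between the groups, but nothing says that they pair the libraries. Correlations of the deviations of same-numbered libraries were -0.007, -0.033, 0.101 and 0.035, not all the best for their library. With the replicate number as a block, 2610 genes passed, 8 members were higher and 4 lower, Smad4 being the added one (-0.32, adjusted p = 0.044 from edgeR), and the signs of Bmpr1a (-0.02), Bmpr2 (-0.01) and Acvr2b (0.02) turned.

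Depth limits what can be said of 12 members, most of them ligands, that had too few counts to test, and of genes under about 5 CPM in the shallow libraries. In simulated data, 2-fold changes were missed in part (81 of 100 found).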
